A study of Homo sapiens with 2 samples.

Results

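The kinesin motor genes of HCC1954 cells, an established HER2-positive human breast cancer line, were compared between 1 library labelled ASO-1235 and 1 library labelled ASO-NC by genotype. The members are all genes whose symbol is KIF or KIFC, a number and at most 1 letter from A to C, with antisense genes and pseudogenes left out. This gave 42 of the 62699 genes in the table. Of these, 34 reached 1 CPM, a count scaled to library size, in at least 1 library. By textbook role, 14 were taken as mitotic kinesins, 15 as transport kinesins and 13 as other kinesins, of which 12, 13 and 9 reached 1 CPM. These classes were set with earlier results of these data known.

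The series title asks for the role of LINC01235, a long non-coding RNA, in transcription of these cells. Polyadenylated RNA was sequenced in each case, and the labels name no dose, time or reagent and do not spell out ASO. The title of the library labelled ASO-1235 begins with Si. The libraries held 37916307 counts (ASO-1235) and 48092494 counts (ASO-NC). LINC01235 had 0 counts in the ASO-1235 library and 1337 counts (28.6 CPM) in the ASO-NC library. With a floor of 3 counts per library in place of the 0, it was at least 373-fold lower in ASO-1235. The epithelial identity of the line was visible in both libraries: all 8 markers of HER2-positive breast epithelium, among them ERBB2, EPCAM and KRT8, exceeded 100 CPM. With 1 library per group, no difference has a replicate check and no p-value is given. Culture, preparation and ASO cannot be told apart.

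Kinesins are motor proteins that use ATP to move along microtubules or to take them apart. Mitotic kinesins build the spindle, align chromosomes and complete cytokinesis, and most are made mainly in G2 and mitosis. Transport kinesins carry vesicles, endosomes, mitochondria and ciliary cargo throughout the cell cycle. Mitotic kinesins are commonly abundant in proliferating breast tumours. Many genes of G2 and mitosis share a promoter element named the cell cycle genes homology region (CHR), which binds MuvB complexes, often with nearby CCAAT boxes, which bind NF-Y.

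The letters of these elements were commoner in promoters of mitotic than of transport kinesins, which is shown first as a description of sequence. RefSeq promoter windows (GRCh38.p14, from 250 bases before to 50 after each start, 300 in all) matched all 12 mitotic, 10 of 13 transport and 7 of 9 other kinesins at 1 CPM, some genes with more than 1 window. KIF13B, KIFC2, KIFC3, KIF21B and KIF27 had no entry. TTTGAA or TTTAAA, the letters of the CHR, were searched on both strands. They stood in 11 of 13 mitotic windows (84.6%), 2 of 15 transport windows (13.3%) and 0 of 9 windows of other kinesins, against 24.0% of all 35116 windows. CCAAT on either strand stood in 10 of 13 mitotic windows (76.9%), 5 of 15 transport windows (33.3%) and 3 of 9 windows of other kinesins, against 34.6% of all windows. Both elements stood in 9 of the 13 mitotic windows and in 9.27% of all windows. They shared no base in any of the 43 kinesin windows. KIF22 was the mitotic kinesin without a CHR match. Counted by gene, CHR letters stood in 11 of 12 mitotic, 2 of 10 transport and 0 of 7 other kinesins, against 27.9% of all 27305 genes. CCAAT stood in 10 of 12 mitotic, 4 of 10 transport and 2 of 7 other kinesins, against 39.7% of all genes. A match is a run of letters and no measured binding site, and a window without one says nothing about the factor.

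The following stretches run 5′ to 3′ from position −150 to position 10, counted from the RefSeq start with no position 0. A RefSeq start can differ from the GENCODE 29 gene boundary given with the values of a gene. The stretches show the spacing of the elements in 4 mitotic kinesins and, for contrast, in KIF5B, a transport kinesin with a CHR match farther upstream. Capitals mark the CHR letters, which include the reverse complement TTCAAA, and the CCAAT box, here as its reverse complement ATTGG.
KIF20A, chr5:138178962-138179121, plus strand: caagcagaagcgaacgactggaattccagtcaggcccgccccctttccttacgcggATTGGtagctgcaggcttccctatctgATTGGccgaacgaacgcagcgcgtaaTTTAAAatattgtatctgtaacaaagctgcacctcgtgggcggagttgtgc
KIF11, chr10:92592980-92593139, plus strand: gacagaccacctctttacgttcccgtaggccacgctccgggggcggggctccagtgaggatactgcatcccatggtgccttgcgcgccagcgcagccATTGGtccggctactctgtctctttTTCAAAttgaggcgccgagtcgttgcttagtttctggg
KIF4A, chrX:70289954-70290113, plus strand: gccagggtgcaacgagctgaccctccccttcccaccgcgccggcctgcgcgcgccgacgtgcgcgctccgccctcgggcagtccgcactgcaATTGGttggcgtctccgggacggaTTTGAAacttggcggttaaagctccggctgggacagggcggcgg
KIFC1, chr6:33391673-33391832, plus strand: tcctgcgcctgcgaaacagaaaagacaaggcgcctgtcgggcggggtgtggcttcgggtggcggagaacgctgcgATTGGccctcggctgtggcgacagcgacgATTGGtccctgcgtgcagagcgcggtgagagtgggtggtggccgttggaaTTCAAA
KIF5B, chr10:32056416-32056575, minus strand: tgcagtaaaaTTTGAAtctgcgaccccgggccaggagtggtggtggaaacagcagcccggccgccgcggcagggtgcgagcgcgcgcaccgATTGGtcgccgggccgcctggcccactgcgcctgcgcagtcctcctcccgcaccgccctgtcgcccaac
In KIF20A the CHR letters began at position −41, with CCAAT boxes at −94 and −67. In KIF11 they began at −28 and the box at −53, and in KIF4A at −34 and −58. In KIF5B the CHR letters began at −140, upstream of the box at −59. In each of the 11 mitotic kinesins with CHR letters, a copy began between positions −55 and 31.

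**Figure D1:**
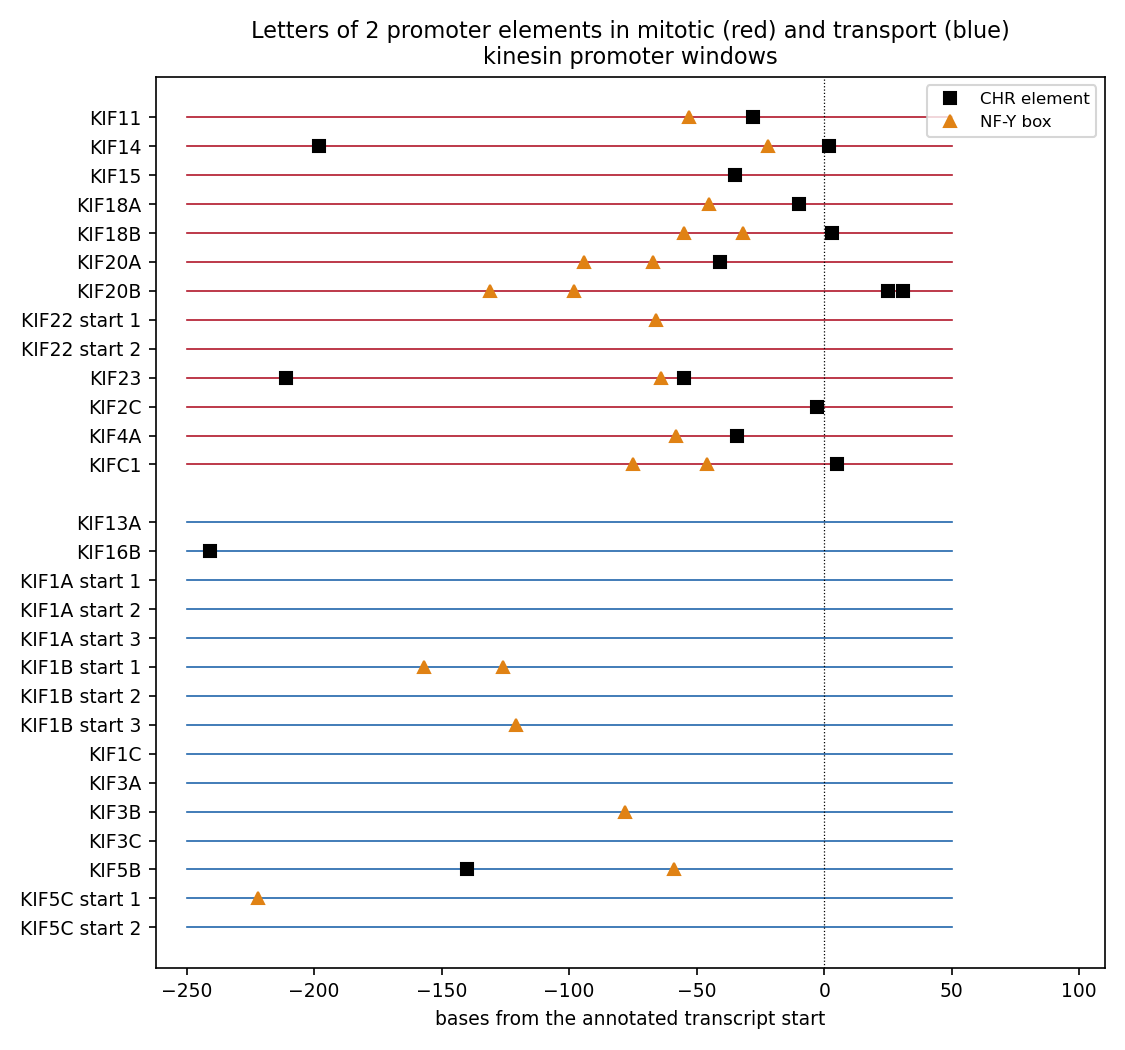
Position of CHR letters (black squares) and CCAAT letters, labelled NF-Y box (orange triangles), in RefSeq promoter windows of mitotic (red) and transport (blue) kinesins at 1 CPM. The x axis gives bases from the annotated start; a CHR match lies between −55 and 31 in 11 of 12 mitotic kinesins, and in KIF5B and KIF16B the match begins at −140 and −241.

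The kinesin with the highest level was KIF1A, a carrier of synaptic vesicle precursors best known from neurons. Levels of different genes are compared as CPM per kilobase of the longest GENCODE 29 transcript. KIF1A stood at 66.7 in ASO-1235 and 71.8 in ASO-NC on that scale. KIF5B, the ubiquitous heavy chain of conventional kinesin, came next at 55.4 in ASO-1235 and 47.5 in ASO-NC. These genes held ranks 1 and 2 in both libraries. KIF1A made up 16.6% of the summed kinesin level in each library, and KIF5B 13.7% in ASO-1235 and 11% in ASO-NC.

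Defining markers of neurons were low or absent beside KIF1A. Of 5 neuronal markers, SYT1 and MAP2 reached 1 CPM. SYT1 had 110 counts in ASO-1235 and 200 in ASO-NC, and MAP2 had 497 in ASO-1235 and 427 in ASO-NC. The 5 markers summed to 16.4 CPM in ASO-1235 and 13.9 CPM in ASO-NC. STMN2 had 0 counts in both libraries, SNAP25 had 16 counts in ASO-1235 and 7 in ASO-NC, and RBFOX3 had 16 in ASO-1235 and 14 in ASO-NC. KIF1A itself had 24002 counts (615 CPM) in ASO-1235 and 30914 counts (662 CPM) in ASO-NC. The neuronal forms of conventional kinesin had few counts: KIF5C had 94 counts in ASO-1235 and 76 in ASO-NC, and KIF5A had 8 in ASO-1235 and 0 in ASO-NC.

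After KIF1A and KIF5B came KIF22, a chromokinesin that binds DNA, and KIF16B, a motor of early endosomes. On the per-kilobase scale KIF22 stood at 26.8 in ASO-1235 and 34.6 in ASO-NC, and KIF16B at 25.8 in ASO-1235 and 26.6 in ASO-NC. KIF22 had the highest level of the mitotic kinesins, followed by KIF20A at 21.5 in ASO-1235 and 25.9 in ASO-NC. Among mitotic kinesins at 1 CPM the lowest were KIF14, at 2.65 in ASO-1235 and 2.76 in ASO-NC, and KIF15, at 3.44 in ASO-1235 and 3.91 in ASO-NC. As a class, mitotic kinesins made up 33.6% of the summed kinesin level in ASO-1235 and 37.2% in ASO-NC. Transport kinesins made up 58.0% in ASO-1235 and 54.9% in ASO-NC. Below 1 CPM in both libraries were 8 members. KIF2B and KIF19 had 0 counts in both, which allows up to 0.0768 CPM in ASO-1235 and 0.0642 CPM in ASO-NC. KIF4B, an intronless copy of KIF4A whose reads can be confused with it, had 8 counts in ASO-1235 and 4 in ASO-NC. KIF5A, KIF6, KIF17, KIF25 and KIF26B had 4 to 12 counts in ASO-1235 and 0 to 18 in ASO-NC.

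**Figure D2:**
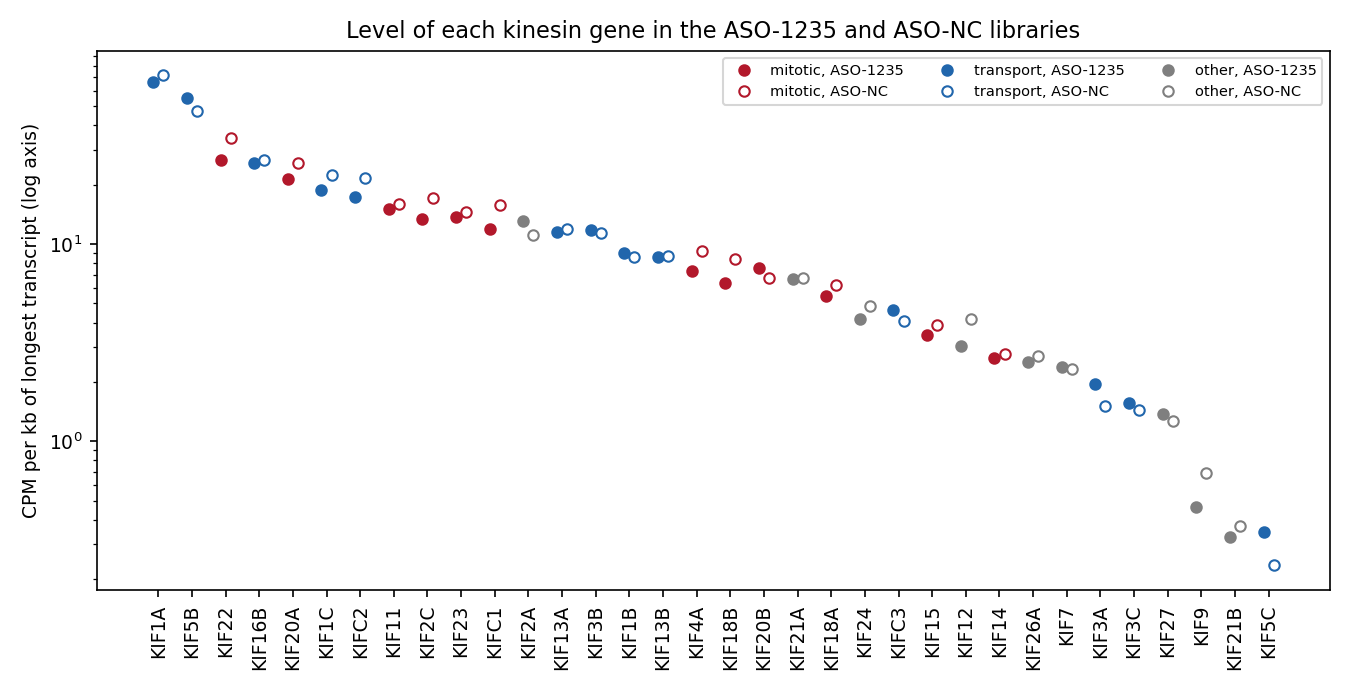
Level of the 34 kinesin genes at 1 CPM, as CPM per kilobase of longest transcript on a log axis, in the ASO-1235 (filled) and ASO-NC (open) libraries, ordered by their mean. KIF1A and KIF5B lead in both libraries, and 11 of 12 mitotic kinesins (red) have the filled point below the open one.

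No kinesin gene at 1 CPM differed by 1.5-fold with an interval that excluded 1. Over all 14352 genes at 1 CPM, 5.20% were called higher and 2.0% lower in ASO-1235 by that rule, or 7.20% either way. With scaling by total count, KIF5C alone was called, at 1.57 (1.001 to 2.47), with a lower bound that nearly touched 1. Each ratio divides the TMM-scaled value of ASO-1235 by that of ASO-NC. Brackets hold exact 95% intervals for counting error, taken on halved counts because both mates of a pair appear to enter the table. By interval alone, 12 of the 34 kinesins were lower and 4 higher in ASO-1235, against 23.0% and 22.8% of all genes. The median log2 ratio of the 34 was −0.09, against 0.00087 over all genes. Scaling by total count moved both up, to −0.0051 for the 34 and 0.09 for all genes.

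Most mitotic kinesins were lower in the ASO-1235 library, and transport kinesins lay on both sides of 1. Mitotic kinesins had 11 of 12 ratios below 1 and a median log2 ratio of −0.23, where 49.9% of all genes had ratios below 1 and 50.1% above. By interval alone, 7 of the 12 were lower and 1 was higher. Transport kinesins had 6 of 13 ratios below 1, with 3 lower and 2 higher by interval alone, and a median of 0.03 that was −0.0039 once the trend with GC content and length was removed. With scaling by total count, 3 of the 13 ratios lay below 1, and by interval alone 2 were lower and 6 higher. Of the 12 mitotic kinesins, 6 were then lower and 1 higher. Of all 14352 genes at that scaling, 5537 had ratios below 1, and by interval alone 2051 were lower and 4621 higher. Other kinesins had 6 of 9 ratios below 1 and a median of −0.11. The mitotic minus the transport median was −0.27 on the log2 scale, both as scaled and with the trend removed. In RNA from a whole culture, fewer cells in G2 or mitosis and less RNA per such cell cannot be told apart.

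Among mitotic kinesins, the lowest ratio was that of KIFC1, a minus-end motor that clusters extra centrosomes in tumour cells. KIFC1 (ENSG00000237649.8, chromosome 6 from 33391536 to 33409924 on the plus strand, GRCh38, GENCODE 29) had 1254 counts in ASO-1235 and 1995 in ASO-NC, a ratio of 0.752 (0.679 to 0.831). KIF18B, which acts on astral microtubules, had 1043 counts in ASO-1235 and 1646 in ASO-NC, a ratio of 0.758 (0.678 to 0.847). The chromokinesin KIF22 had 2618 counts in ASO-1235 and 4052 in ASO-NC, a ratio of 0.773 (0.720 to 0.829). All 3 were lower in the ASO-1235 library with overlapping intervals that excluded 1. Antisense AC009133.4 overlaps 13% of the exonic bases of KIF22 and the pseudogene RPL12P1 12.7% of those of KIFC1, and both had 0 counts in each library.

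KIF2C, the centromeric microtubule depolymerase also named MCAK, had 1551 counts in ASO-1235 and 2354 in ASO-NC, a ratio of 0.788 (0.719 to 0.863). KIF4A, a chromokinesin of the anaphase midzone, had 1244 counts in ASO-1235 and 1881 in ASO-NC, a ratio of 0.791 (0.713 to 0.876). KIF20A, which brings the chromosomal passenger complex to the central spindle, had 2689 counts in ASO-1235 and 3874 in ASO-NC, a ratio of 0.830 (0.774 to 0.890). KIF20A (ENSG00000112984.12) lies on chromosome 5 from 138178719 to 138187715, and 3.34% of its exonic bases overlap BRD8 and 1.72% overlap CDC23, both on the opposite strand. BRD8 had 82.9 CPM in ASO-1235 and 86.5 CPM in ASO-NC. Since it is not known whether counting used strand, reads of a kinesin and an overlapping gene cannot be told apart. KIF18A, which dampens chromosome movement at the metaphase plate, had 758 counts in ASO-1235 and 1039 in ASO-NC, a ratio of 0.872 (0.762 to 0.998) whose upper bound nearly touched 1 and was 1.06 with scaling by total count.

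The remaining mitotic kinesins lay nearer to 1. KIF11, the kinesin-5 motor that separates spindle poles and is known as Eg5, had 2867 counts in ASO-1235 and 3638 in ASO-NC, a ratio of 0.942 (0.879 to 1.01). KIF15, which can take over from KIF11 in bipolar spindles, was at 0.882 (0.762 to 1.02), and KIF14, a motor of cytokinesis, was at 0.958 (0.834 to 1.10). KIF23, the motor subunit of centralspindlin, had 1990 counts in ASO-1235 and 2541 in ASO-NC, a ratio of 0.936 (0.861 to 1.02). These 4 intervals include 1 as scaled, and all 4 lie below 1 with the trend of GC content and length removed. KIF20B, also a kinesin-6 of late cytokinesis, was the exception, with 1894 counts in ASO-1235 and 2021 in ASO-NC, a ratio of 1.12 (1.02 to 1.23). Its ratio was 0.911 (0.832 to 0.996) with the GC and length trend removed, so its direction depends on that step. With scaling by total count, 10 of the 12 mitotic ratios lay below 1, against 5537 of all 14352 genes, and that of KIF14 was 1.02. Among the 10, KIF11 at 0.9996 (0.932 to 1.07) and KIF23 at 0.993 (0.913 to 1.08) lay almost at 1.

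**Figure D3:**
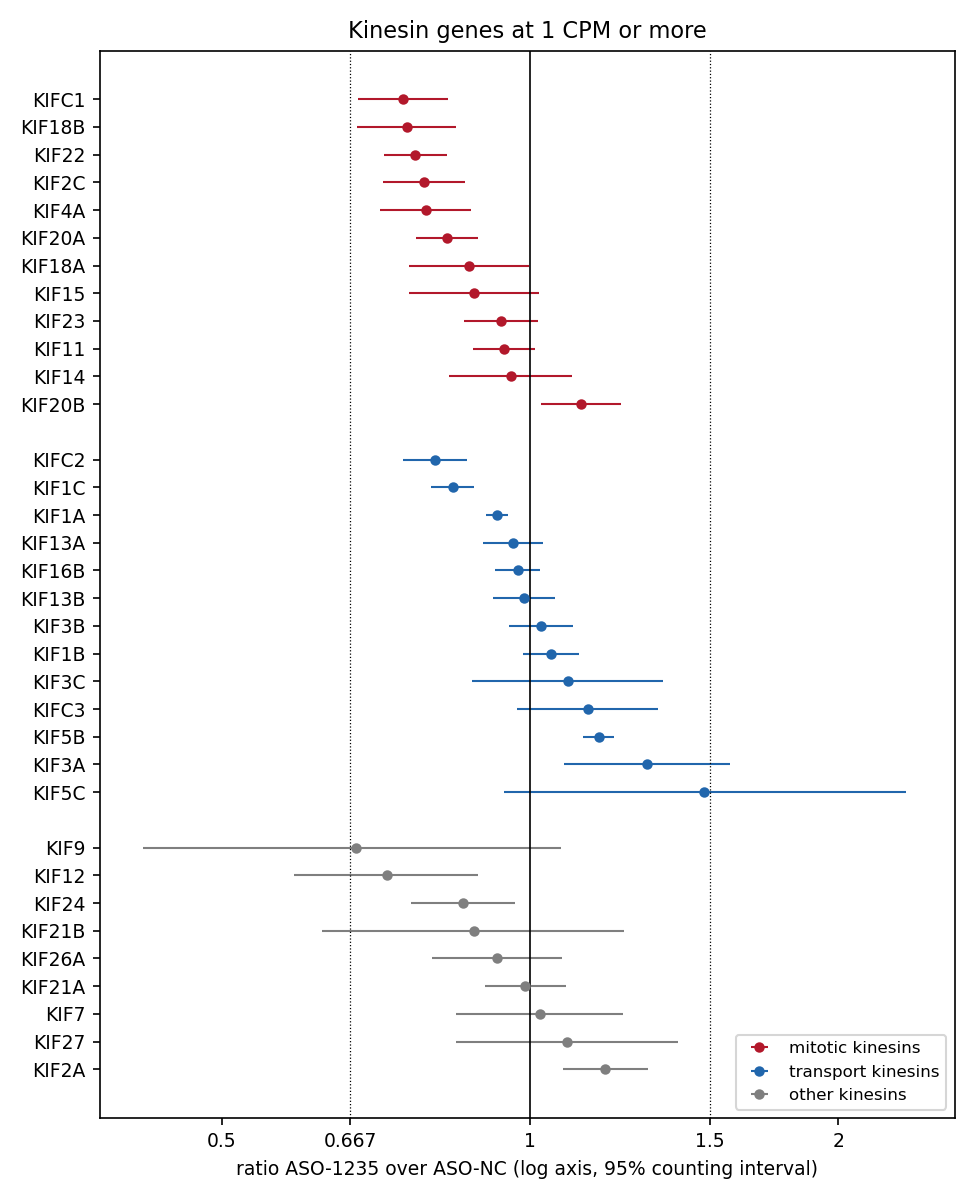
Ratio of ASO-1235 over ASO-NC for the 34 kinesin genes at 1 CPM, on a log axis with 95% counting intervals on halved counts, grouped by class. Dotted lines mark 1.5-fold either way, and no interval that excludes 1 belongs to a gene past them; mitotic kinesins run from 0.752 (KIFC1) to 1.12 (KIF20B).

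Transport kinesins lay on both sides of 1. At the lower end stood KIFC2, a minus-end motor, with 2479 counts in ASO-1235 and 3672 in ASO-NC, a ratio of 0.807 (0.751 to 0.868). FOXH1 overlaps 17.8% of the exonic bases of KIFC2 but stayed under 1 CPM in both libraries. KIF1C, a vesicle motor, had 5801 counts in ASO-1235 and 8256 in ASO-NC, a ratio of 0.840 (0.801 to 0.881). KIF1A (ENSG00000130294.18, chromosome 2 from 240713761 to 240821036) was at 0.928 (0.906 to 0.951), at 0.997 (0.974 to 1.02) with the trend removed and at 0.985 (0.962 to 1.01) with scaling by total count.

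At the upper end, KIF5B (ENSG00000170759.11, chromosome 10 from 32009010 to 32056431) had 12712 counts in ASO-1235 and 13030 in ASO-NC, which after scaling was a ratio of 1.17 (1.13 to 1.21). KIF3A, a subunit of the kinesin-2 motor of intraflagellar transport, had 485 counts in ASO-1235 and 446 in ASO-NC, a ratio of 1.30 (1.08 to 1.57). Both intervals included 1 once the trend was taken out, at 1.01 (0.974 to 1.04) for KIF5B and 1.10 (0.913 to 1.33) for KIF3A. KIF3B, the partner of KIF3A in that motor, was at 1.02 (0.953 to 1.10). KIF5C had the highest ratio of the 34 at 1 CPM, 1.48 (0.944 to 2.33), from few counts. KIFC3, a minus-end motor of adherens junctions, was at 1.14 (0.971 to 1.33) and at 1.29 (1.10 to 1.51) with the trend removed.

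Between these ends, the endosome motors KIF13A and KIF16B were at 0.962 (0.899 to 1.03) and 0.972 (0.923 to 1.02). KIF13B was at 0.986 (0.919 to 1.06), KIF1B, a motor of mitochondria and vesicles, at 1.05 (0.985 to 1.12), and KIF3C at 1.09 (0.878 to 1.35). These 5 intervals include 1, and with scaling by total count the ratios of KIF13A, KIF16B and KIF13B lay above 1, at 1.02, 1.03 and 1.05. With the trend removed, KIF13A was at 0.913 (0.853 to 0.976) and KIF16B at 0.927 (0.880 to 0.976), both with intervals below 1.

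Of the other kinesins, KIF2A stood higher and KIF12 and KIF24 lower in ASO-1235 by interval alone. KIF2A, a depolymerase of spindle poles and neurons, had 1726 counts in ASO-1235 and 1742 in ASO-NC, a ratio of 1.18 (1.08 to 1.30), against 0.788 for its kinesin-13 relative KIF2C. With the trend removed it was at 1.08 (0.985 to 1.19), and IPO11 overlaps 8.97% of its exonic bases on the same strand. KIF12 had 304 counts in ASO-1235 and 502 in ASO-NC, a ratio of 0.724 (0.588 to 0.889), and 0.826 (0.671 to 1.01) with the trend removed. KIF24, a depolymerase of centrioles that restrains cilium formation, was at 0.859 (0.764 to 0.966), at 0.855 (0.760 to 0.961) with the trend removed, and at 0.911 (0.810 to 1.02) with scaling by total count.

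The hedgehog regulator KIF7 was at 1.02 (0.846 to 1.23) and its relative KIF27 at 1.09 (0.847 to 1.40). For KIF7, 11.8% of exonic bases overlap TICRR, which had 23.8 CPM in ASO-1235 and 30.9 CPM in ASO-NC. KIF21A, which limits microtubule growth, was at 0.989 (0.902 to 1.08), and KIF21B at 0.881 (0.626 to 1.23). The ratio of KIF21A was 1.05 (0.957 to 1.15) with scaling by total count and 0.884 (0.807 to 0.969) with the trend removed. KIF26A, which lacks ATPase activity, was at 0.928 (0.801 to 1.07). KIF9 had the lowest ratio of the 34 at 1 CPM, at 0.675 (0.418 to 1.07), from 61 counts in ASO-1235 and 108 in ASO-NC, and its antisense gene overlaps 14.9% of its exonic bases.

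Transcript GC content moved with the ratio over the whole table, and the kinesins differ in it. Genes were split by GC content into 5 bins of nearly equal gene number. The median log2 ratio of all genes was 0.21 in bin 1, the lowest in GC content, and −0.19 in bin 5. Mitotic kinesins ranged from 34.2% GC (KIF20B) to 58.9% (KIF22), with a median of 44.3%, and transport kinesins had a median of 47.6%. In bin 1, KIF11, KIF14, KIF18A and KIF20B had a median log2 ratio of −0.07, against 0.30 for KIF3A and KIF5B. In bin 3, KIF2C, KIF4A and KIF20A had a median of −0.34, against −0.0031 for 4 transport kinesins. In bin 5, KIF18B, KIF22 and KIFC1 had a median of −0.40, against −0.11 for 3 transport kinesins. All 12 mitotic kinesins lay below the median of all genes in their own GC bin, and 4 of 13 transport kinesins did. KIF2A, a depolymerase of spindle poles placed here with the other kinesins, lay 0.147 above the median of its bin.

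**Figure D4:**
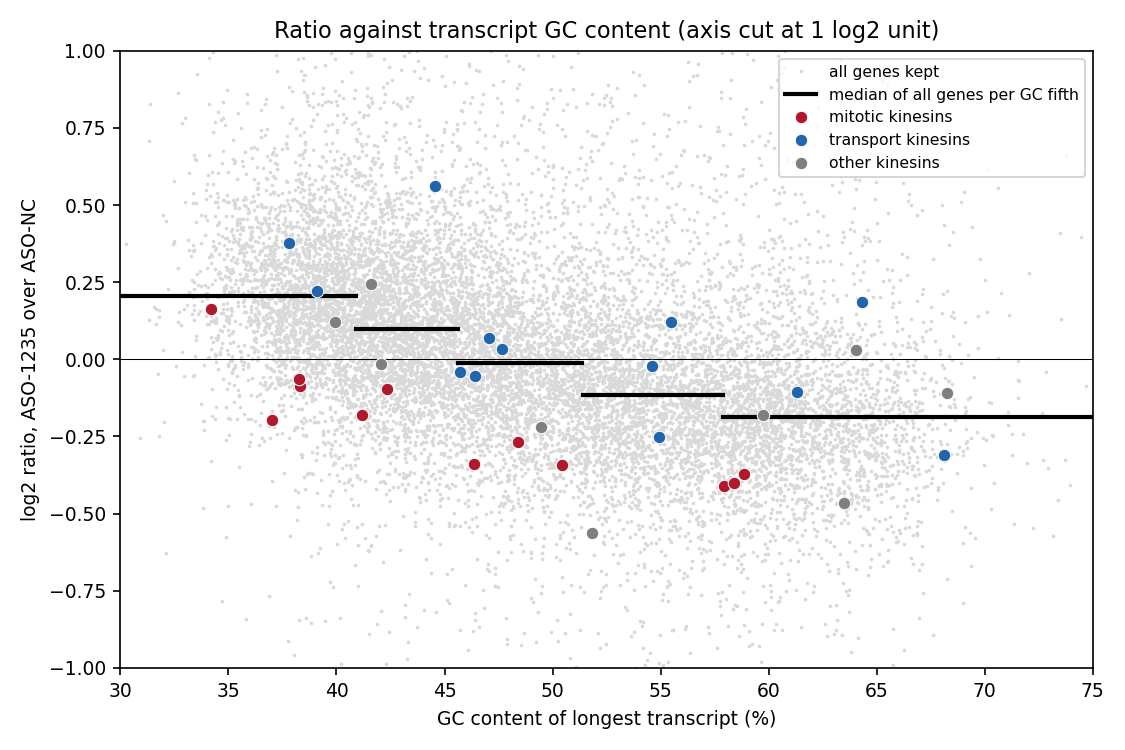
Log2 ratio of ASO-1235 over ASO-NC against GC content of the longest transcript for all genes at 1 CPM (grey), with the median of all genes in each of 5 GC bins (black bars) and the kinesins in colour; genes beyond 1 log2 unit fall outside the axis. All 12 mitotic kinesins (red) lie below the bar of their bin, and KIF2A, placed with the other kinesins, lies above its bar.

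With the trend removed, the mitotic kinesins came closer together. All 12 ratios were then below 1 with intervals that excluded 1, from 0.750 for KIF18A to 0.911 for KIF20B, with a median log2 ratio of −0.27. KIF2A, a depolymerase of spindle poles placed with the other kinesins, was at 1.08 (0.985 to 1.19). Of all genes with a trend value, 52.6% then had ratios below 1, 21.1% had intervals below 1 and 16.8% had intervals above 1. The SD of the log2 ratios of the 12 mitotic kinesins was 0.0778, against 0.174 as scaled. KIF11 moved to 0.814 (0.759 to 0.873), KIF23 to 0.863 (0.793 to 0.938), KIF14 to 0.809 (0.704 to 0.928) and KIFC1 to 0.839 (0.758 to 0.928). Transport kinesins kept a wider spread, with an SD of 0.197 against 0.240 as scaled, and 1 interval above and 4 below 1. None of the 34 at 1 CPM was past 1.5-fold with an interval that excluded 1 after this step either. How much of the trend is technical was not tested. The lowest counts of a transport kinesin were 94 in ASO-1235 and 76 in ASO-NC (KIF5C), against 651 and 883 for mitotic kinesins. The part of counting error in the wider spread of transport kinesins was not tested.

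**Figure D5:**
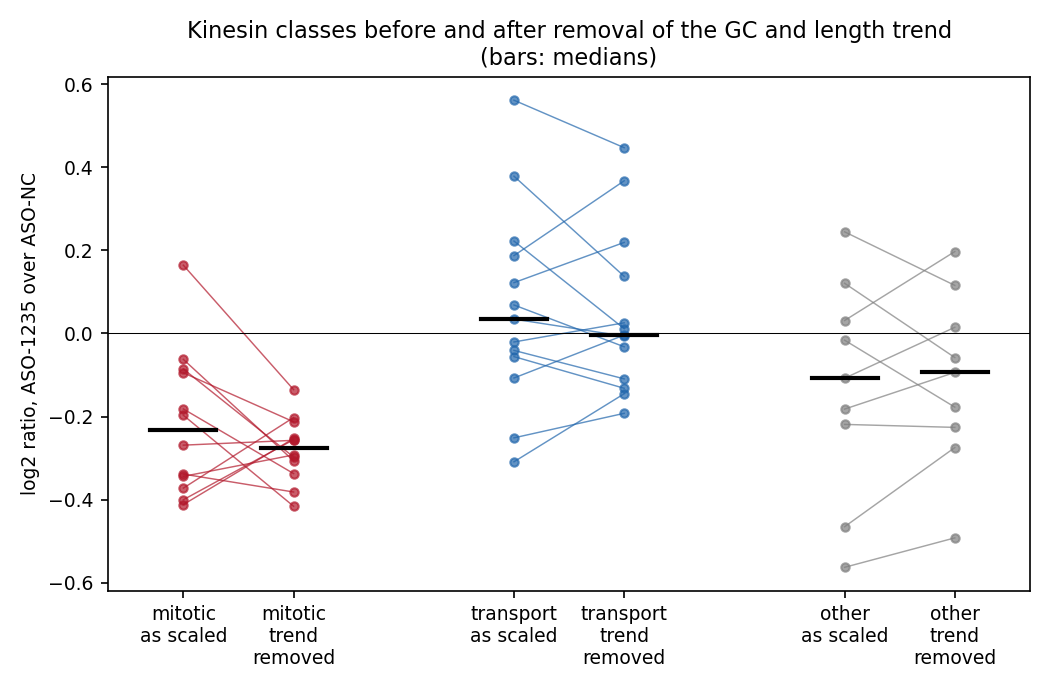
Log2 ratio of each kinesin at 1 CPM as scaled (left of each pair) and with the trend of GC and length taken out (right), by class, with medians as black bars. The 12 mitotic kinesins fall between −0.42 and −0.14 after the step. Transport kinesins span −0.19 to 0.45, with the upper end set by KIF5C, which had few counts.

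Partner genes of mitotic kinesins lay mostly below 1 as well. Of 16 partners, 14 reached 1 CPM, with a median log2 ratio of −0.24. Of these 14, 13 had ratios below 1, against 49.9% of all genes. By interval alone 12 were lower and 1 was higher, against 23.0% and 22.8% of all genes. All 4 genes of the chromosomal passenger complex, the cargo of KIF20A, were lower. AURKB, its kinase, had 864 counts in ASO-1235 and 1503 in ASO-NC, a ratio of 0.687 (0.609 to 0.775). The other members were INCENP at 0.755 (0.711 to 0.801), BIRC5 at 0.761 (0.692 to 0.837) and CDCA8 at 0.783 (0.711 to 0.862). CIT, the citron kinase that binds KIF14, was at 0.782 (0.728 to 0.839). RACGAP1, the centralspindlin partner of KIF23, was at 0.876 (0.820 to 0.935). TPX2, which binds KIF11 and KIF15, was at 0.829 (0.797 to 0.863). CENPE, a kinetochore kinesin whose symbol falls outside the naming rule, was at 0.944 (0.867 to 1.03), close to KIF11. HMMR, a spindle protein, was the exception at 1.37 (1.23 to 1.53). None of the 14 was past 1.5-fold with an interval that excluded 1, and with the trend removed the median was −0.29. CENPE was then at 0.762. With scaling by total count, 12 of the 14 ratios lay below 1, against 5537 of all 14352 genes, and the median was −0.15. By interval alone, 10 partners were lower and 1 higher at that scaling, where 2051 of all genes were lower and 4621 higher.

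Cofactors of transport kinesins and genes of dynein, the minus-end motor, had ratios on both sides of 1. Among those at 1 CPM, 0 in either list were past 1.5-fold with an interval that excluded 1. Of 20 cofactors, 18 reached 1 CPM, with 11 ratios below 1 and a median log2 ratio of −0.03. With scaling by total count, 4 of the 18 ratios lay below 1, against 5537 of all 14352 genes, and the median was 0.05. As scaled by TMM, 3 were lower and 4 higher by interval alone. Over all genes, 49.9% of ratios then lay below 1, and 23.0% were lower and 22.8% higher by interval alone. RHOT2, a mitochondrial adaptor GTPase, was at 0.734 (0.686 to 0.786) and the kinesin light chain gene KLC4 at 0.781 (0.640 to 0.952), whose upper bound was 1.06 with the trend removed. The adaptor gene SPAG9 was at 1.36 (1.29 to 1.44). Of 23 dynein and dynactin genes, 22 reached 1 CPM, with 12 ratios below 1 and a median of −0.07, which was 0.02 with scaling by total count. By interval alone 11 of the 22 were lower and 5 higher, against 23.0% and 22.8% of all genes. With scaling by total count 4 were lower and 8 higher, where 2051 of all 14352 genes were lower and 4621 higher. DCTN1, the largest dynactin subunit, was at 0.682 (0.626 to 0.743), and NDE1 at 0.743 (0.601 to 0.916). DYNLRB1, a dynein light chain gene, was at 1.45 (1.15 to 1.83). DYNLRB1 was past 1.5-fold at 1.51 with the trend removed and at 1.54 (1.22 to 1.94) with scaling by total count. PAFAH1B1, which encodes the dynein regulator LIS1, was at 1.22 (1.16 to 1.29).

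Summed over all 14 members, mitotic kinesins held 495 CPM in ASO-1235 and 575 CPM in ASO-NC, a ratio of 0.860. Their 16 partners held 1263 CPM in ASO-1235 and 1469 CPM in ASO-NC, also a ratio of 0.860. Transport kinesins summed to 1650 CPM in ASO-1235 and 1690 CPM in ASO-NC, a ratio of 0.976. The same sum over all genes had a ratio of 0.943, so 1 is not the neutral value for these sums. Markers of other cell types were few: 1 of 5 immune, 2 of 6 fibroblast and 1 of 4 endothelial markers reached 1 CPM. The immune markers summed to 1.43 CPM in ASO-1235 and 2.18 CPM in ASO-NC. The endothelial markers summed to 7.40 CPM in ASO-1235 and 8.07 CPM in ASO-NC, and the fibroblast markers to 42.0 CPM in ASO-1235 and 45.6 CPM in ASO-NC, nearly all from COL1A1, with PDGFRB at 0 in both. FAP, a fibroblast marker, was called higher at 2.26 (1.14 to 4.68), with 53 counts in ASO-1235 and 28 in ASO-NC. LYZ, an immune marker, was called lower at 0.537 (0.309 to 0.905), with 44 counts in ASO-1235 and 98 in ASO-NC. The neuronal marker SYT1 was called lower at 0.658 (0.464 to 0.923), and MAP2 was at 1.39 (1.15 to 1.68) without a call. The part of such cells in the ratios was not tested.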

How the data were processed

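The authors deposited unnormalized counts per gene. Per the submitters' processing notes, the tools were STAR 2.7.11a and featureCounts 2.0.6 and the build was hg38. Not given in the sources used here are annotation release, strand handling and filtering. Polyadenylated RNA was captured, fragmented and primed with random hexamers, per the labels' protocols.

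Of counts from 1 to 1000, 64.0% in ASO-1235 and 67.5% in ASO-NC were even, so mates seem to have been counted separately. Libraries were scaled by TMM (edgeR 4.0.16, R 4.3.3) over the 14352 genes at 1 CPM, with factors of 1.03 for ASO-1235 and 0.971 for ASO-NC. Ratios carry exact Clopper-Pearson 95% intervals given the sum of both halved counts. They hold for counting error alone: without molecular identifiers, PCR copies count as separate molecules. List medians use log2 ratios with a prior count of 0.5. A gene was called at 1.5-fold with an interval that excluded 1. The calculation was tested on simulated data in which both mates of every pair were counted. All simulated counts were thus even, unlike those deposited, so the test does not cover mates counted singly.

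The GC and length trend was modelled with splines of 5 degrees of freedom each in a robust regression (statsmodels 0.14.6), using GENCODE 29 values available for 97.7% of genes, and subtracted. Alternatives were other scalings (DESeq2 1.42.0 size factors, upper quartile, total count), minimum CPM, sizes of change, prior counts, intervals and classes. Symbols for all 62699 IDs came from a table of gene names, since the deposited table has IDs only.

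Members, classes and lists were chosen with earlier results of these data known. The naming rule took LINC01235, KIF11, KIF20A and KIF5B, the 4 highest and 4 lowest ratios of each class, and the 2 highest and 2 lowest of each partner list, of which 1 is not reported here. The remaining kinesins are given to account for every member. BIRC5, CDCA8, CIT, RACGAP1 and TPX2, and PRC1, NUSAP1 and the markers FAP and LYZ, were named after their values were seen. The ratios of SYT1 and MAP2 were likewise given after they were seen.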

Additional observations from a re-analysis of the deposited data

How the results depend on the processing

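The mitotic median lay between −0.27 and −0.15 and the difference between mitotic and transport medians between −0.27 and −0.18 under all alternatives run. The smallest difference, −0.18, came from placing KIF2A with mitotic and KIF21A and KIF21B with transport kinesins. Under the 6 alternatives run for single named genes, 1 value changed sign with an interval that excluded 1 before and after: KIF20B, to a log2 ratio of −0.14 with the trend removed. With scaling by total count, 1 kinesin (KIF5C) was called higher, with a lower bound of 1.001, and the median log2 ratio of cofactors was 0.0509. The same scaling gave 1032 higher and 180 lower genes in all, against 746 higher and 287 lower as reported. With no size asked for, 4 kinesins were higher and 12 lower, and over all genes 3273 were higher and 3308 lower. There were 344 higher and 71 lower genes at 2-fold, 279 higher and 101 lower with a minimum of 5 CPM, and 1126 higher and 415 lower with no minimum. For the shifts that follow from fewer genes or another size of change the construction is the cause; for the others the cause was not tested. No paired analysis was possible because each group has 1 library. Depth limits the low kinesins most: of the 34 at 1 CPM, KIF5C (94 counts in ASO-1235 and 76 in ASO-NC) and KIF9 (61 counts in ASO-1235 and 108 in ASO-NC) had the most extreme ratios, 1.48 and 0.675, with intervals that include 1.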

Other observations

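Among the mitotic partners, PRC1, which recruits KIF4A to the midzone, had 16 counts in ASO-1235 and 25 in ASO-NC. NUSAP1, a spindle protein, had 8 counts in ASO-1235 and 12 in ASO-NC. The other 14 partners had at least 864 counts in ASO-1235 and 1236 in ASO-NC. The annotation used for counting is not known, so these counts may not measure the level of either gene. PRC1 and NUSAP1 stayed under 1 CPM in both libraries and enter the partner median only in the alternative with no minimum CPM. Their counts are part of the summed level of the partners. No mitotic kinesin was as low, apart from KIF2B and KIF4B.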
